A study of Mus musculus with 6 samples.

Results

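Complement genes and the pentraxin Ptx3 were examined in 3T3 cells, a mouse fibroblast line derived from embryos, that carried a control construct or a construct overexpressing NNMT (nicotinamide N-methyltransferase), an enzyme that methylates nicotinamide with S-adenosylmethionine. Each group had 3 libraries of total RNA, which the submitters call biological replicates, from cells grown for 48 h in methionine-free DMEM brought to 10 µM methionine with 10% dialyzed serum, and neither the promoter of the constructs nor the number of separately transduced populations is given in the sources used here. The 9 genes, of 35275 rows in the table, were taken by name: the initiating proteases C1ra, C1s1 and Masp1, the components C4b and C3, the regulators Serping1, Cd55 and Clu, and Ptx3. They were chosen with their levels in NNMT and control libraries known, so those levels are given as a description and without a test.

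Complement is a cascade of secreted proteases. In the classical pathway C1q, bound to a target, activates the proteases C1r and C1s, which cleave C4 and C2, and in the lectin pathway the MASP proteases start the cascade; both lead to cleavage of C3, the central component that tags surfaces. The C1 inhibitor (Serping1) blocks C1r, C1s and the MASPs, Cd55 speeds the decay of the C3-cleaving enzymes, Clu (clusterin) binds the terminal complex, and Ptx3 is a secreted long pentraxin that binds C1q and that fibroblasts make in response to inflammatory cytokines.

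Levels are FPKM (reads scaled to gene length and to library size), which the deposited table does not name as its unit and which were inferred from its values. Whole reads recovered from these values summed to between 31620637 and 39980621 per library. Of the NNMT libraries, replicates 2 and 3 carry their number in the table and the remaining one does not, and it is called the unnumbered NNMT library. Nnmt itself had 7.60, 5.25 and 6.51 FPKM in controls 1, 2 and 3, against 15.7, 15.03 and 18.3 FPKM in the unnumbered NNMT library, NNMT 2 and NNMT 3 (log2 fold change 1.23, SE 0.108, limma adjusted p = 4.75e-06). In bulk RNA, fewer cells that express a gene and less RNA per cell cannot be told apart. All 12 fibroblast markers examined passed the filter for the test, 6 of them higher and 4 lower in NNMT cells, with summed levels of 8323 to 8605 FPKM in control and 10562 to 12006 FPKM in NNMT libraries. Of all 10882 tested genes, 35.0% were called higher and 30.6% lower at a limma adjusted p under 0.05, 65.6% in either direction. The leukocyte markers Ptprc and Adgre1 reached at most 0.0304 and 0.00872 FPKM, 3 of 13 leukocyte markers were at 0 throughout, and the summed level of that list was 7.29 to 8.10 FPKM in control and 4.15 to 5.77 FPKM in NNMT libraries, most of it Cd14 and Cd68. Its members did not all go down. Csf1r was lower in NNMT cells (0.761 ± 0.0486 and 0.194 ± 0.0715 FPKM) and Aif1 higher (0.345 ± 0.109 and 0.871 ± 0.117 FPKM, on 31 and 85 reads), both without overlap. Of 8 hepatocyte markers 5 were at 0, including Alb, and the list summed to at most 0.106 FPKM in any library. Epithelial and endothelial markers summed to at most 0.140 and 0.247 FPKM. Adipocyte markers summed to 0.298 to 0.778 FPKM in control and 1.34 to 1.86 FPKM in NNMT libraries, with Adipoq and Cidec at 0. The part of these marker differences in the results was not tested.

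The proteases of the C1 complex were several-fold higher in NNMT cells. C1s1 (ENSMUSG00000038521, chromosome 6, 124530345 to 124542359 in GRCm38, minus strand), which cleaves C4 and C2, was at 3.21, 2.15 and 2.69 FPKM in the control libraries and at 14.9, 9.50 and 17.01 FPKM in the unnumbered NNMT library, NNMT 2 and NNMT 3. The lowest NNMT library, NNMT 2, was well above the highest control library. The means were 2.69 ± 0.529 and 13.8 ± 3.87 FPKM (SD, n = 3 per group, as in all that follows), a 5.14-fold difference on 820 and 4565 reads. The log2 fold change was 1.98 (SE 0.179), taken on log2(FPKM + 1), where the added 1 shrinks differences between low values.

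C1ra (ENSMUSG00000055172, chromosome 6, 124512405 to 124523443, plus strand), the protease that activates C1s, stood at 6.36, 4.04 and 4.08 FPKM in the control libraries and at 19.7, 16.05 and 21.01 FPKM in the NNMT libraries in the same order. The groups did not overlap, control 1 was the highest of its group and NNMT 2 the lowest of its group. The means were 4.83 ± 1.33 and 18.9 ± 2.57 FPKM, 3.92-fold apart (log2 fold change 1.79, SE 0.141). C1s1 stood at 0.566 ± 0.0830 of the FPKM of C1ra in control libraries and at 0.719 ± 0.113 of it in NNMT libraries, with overlapping values (0.660 in control 3 and 0.592 in NNMT 2).

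Both genes lie in a cluster on chromosome 6 that holds 5 related protease genes within 143 kb, and the other 3 were higher in NNMT cells too. C1rl, a C1r-like protease, was at 0.379 ± 0.112 FPKM in control and 2.26 ± 0.367 FPKM in NNMT cells (log2 fold change 1.24, SE 0.0995). C1s2, the second mouse C1s gene, was at 0.438 ± 0.120 and 2.06 ± 0.703 FPKM (log2 fold change 1.07, SE 0.152). C1rb, the second C1r gene, was too low for the test, at 0.104 ± 0.0341 and 0.448 ± 0.120 FPKM on 27 and 122 reads. C1rl and C1s2 passed the filter of a mean of 1 FPKM through the NNMT group alone, the group where they are high, so their values are given without a test. The paralogs share sequence: 48.0% of the 50-base stretches of the longest C1ra transcript also occur in C1rb, and 24.3% of those of C1s1 occur in C1s2. How reads that match both were counted is not given, so the split within each pair is uncertain. Summed over the cluster, which is less exposed to that split, the level was 10.8, 6.99 and 7.53 FPKM in the control libraries and 39.9, 29.0 and 43.5 FPKM in the NNMT libraries (4.45-fold).

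Genes around the cluster had smaller differences. Of the 18 other tested genes that start within 500 kb of C1s1, 8 were called higher and 3 lower, against 35.0% and 30.6% of all tested genes, with log2 fold changes from -0.53 to 0.43 (median 0.14). The genes on the 2 sides of the cluster that were nearest to it among those tested, Lpcat3 and Pex5, had log2 fold changes of 0.00 (SE 0.0487) and -0.04 (SE 0.0472). The median of the 524 tested genes of chromosome 6 was 0.07. The plot of fold change against distance shows the cluster above its neighbours.

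**Figure D1:**
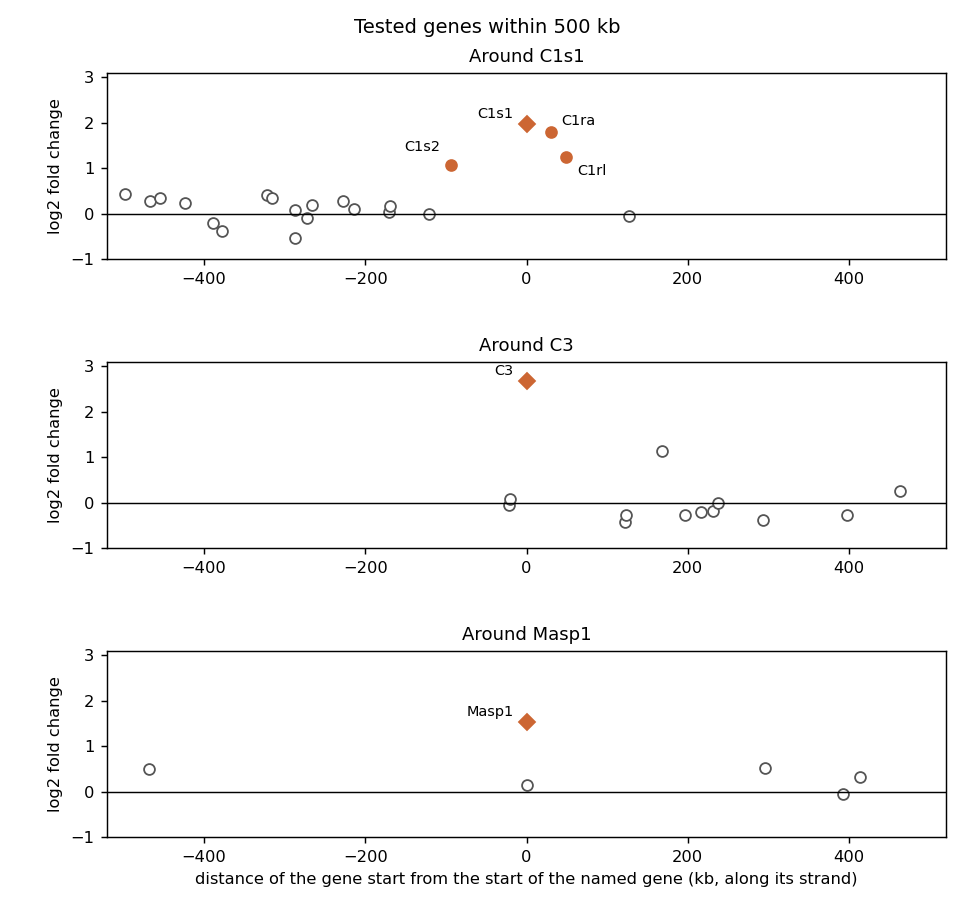
Log2 fold change (NNMT minus control, on log2(FPKM + 1)) of each tested gene against the distance of its start from that of C1s1, C3 or Masp1 (kb, along that gene's strand). Diamonds mark the named gene, filled circles the other tested genes of the C1r and C1s cluster (C1s2, C1ra and C1rl), and open circles other genes. C1s1 and its cluster lie at 1.07 to 1.98, and the 18 other genes around C1s1 lie between -0.53 and 0.43.

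Masp1 (ENSMUSG00000022887, chromosome 16, 23449417 to 23520815, minus strand), which encodes lectin pathway proteases and a protease-free splice product that the gene total does not separate, was at 7.86, 8.71 and 8.81 FPKM in the control libraries and at 27.9, 25.5 and 26.2 FPKM in the NNMT libraries. The libraries of each group lay close together and the groups were far apart. The means were 8.46 ± 0.524 and 26.5 ± 1.24 FPKM, 3.14-fold apart (log2 fold change 1.54, SE 0.0576). Genes of chromosome 16 were generally higher in NNMT cells, with a median log2 fold change of 0.29 over 347 tested genes, and the 5 tested neighbours of Masp1 within 500 kb lay between -0.04 and 0.52. One of them, Rtp4, overlaps Masp1 on the opposite strand and was at 1.22 ± 0.210 and 1.46 ± 0.158 FPKM, small beside Masp1 in both groups. Masp2, the other MASP gene, was too low for the test, at 0.228 ± 0.0535 FPKM in control and 0.603 ± 0.0894 FPKM in NNMT cells.

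The recognition proteins that these proteases attach to were mostly missing from the RNA. C1qa, C1qb and C1qc, the chains of C1q, had at most 4 reads in any library, or at most 0.0941 FPKM. The lectins and ficolins Mbl1, Mbl2 and Fcnb were at 0 in all libraries, and the soluble collectins Colec10 and Colec11 had 12 and 10 reads over the control group and 5 and 6 over the NNMT group. Colec12, a membrane scavenger receptor related to the collectins, was well expressed, at 34.0 ± 1.55 FPKM in control and 53.8 ± 3.60 FPKM in NNMT cells (log2 fold change 0.65, SE 0.0582, limma adjusted p = 5.48e-06).

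C4b (ENSMUSG00000073418, chromosome 17, 34728380 to 34743882, minus strand), the fourth component and a target of C1s, was low, with 14 to 55 reads per library. It was at 0.0765, 0.110 and 0.0822 FPKM in the control libraries and at 0.246, 0.142 and 0.281 FPKM in the NNMT libraries, on 51 and 135 reads. All NNMT libraries were above all control libraries, but the closest values, 0.142 FPKM in NNMT 2 and 0.110 FPKM in control 2, rest on few reads. These were 27 and 23 reads, from libraries of different depth. The means were 0.0895 ± 0.0178 and 0.223 ± 0.0724 FPKM, 2.49-fold apart, and C4b did not reach the filter for the test. Its neighbour and near copy C4a was at 0.572 ± 0.0769 and 1.13 ± 0.163 FPKM. Since 35.2% of the 50-base stretches of C4b also occur in C4a, the split between these genes is uncertain. C2, which C1s also cleaves, was at 0.241 ± 0.0554 and 0.219 ± 0.0611 FPKM with overlapping groups.

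C3 (ENSMUSG00000024164, chromosome 17, 57203970 to 57228136, minus strand) had the largest ratio between the groups among the 9 genes. It was at 0.698, 0.445 and 0.578 FPKM in the control libraries and at 11.4, 5.99 and 10.7 FPKM in the unnumbered NNMT library, NNMT 2 and NNMT 3. The control libraries were all under 1 FPKM and every NNMT library was several-fold above them, with NNMT 2 the lowest of them. The means were 0.574 ± 0.126 and 9.35 ± 2.93 FPKM, 16.3-fold apart on 305 and 5421 reads (log2 fold change 2.68, SE 0.179), and C3 passed the filter for the test through the NNMT group alone. Its mean exceeded that of 0.625% of tested genes in control and 43.0% of them in NNMT cells. The low place in control follows in part from the filter, since tested genes average at least 1 FPKM over the 6 libraries. The median of the 542 tested genes on chromosome 17 was -0.15. The 12 tested neighbours within 500 kb had a median of -0.19, and the one over 1, Slc25a23, was at 1.13.

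The other genes of the alternative pathway were low, and none of them was higher in all NNMT libraries. Properdin (Cfp), the X-linked stabiliser of the alternative C3-cleaving enzyme, was at 1.41 ± 0.202 FPKM in control and 0.770 ± 0.237 FPKM in NNMT cells without overlap (log2 fold change -0.45, SE 0.109). It passed the filter through the control group alone, and not at all when control 2 was left out, so no test of it is given. Factor B (Cfb) had 1 read in all 6 libraries, and factor D (Cfd) had 14 reads in control and 2 in NNMT libraries. None of the 7 genes of the terminal, membrane-attacking components reached the filter, and C8g, the highest of them, was at 0.953 ± 0.235 and 0.859 ± 0.277 FPKM with overlapping groups. Hc, which encodes C5 and is named here after its values were seen, had 54 reads in control and 6 in NNMT libraries.

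Of the regulators, the C1 inhibitor was not detectable above 1 read at this depth in either group. Serping1 (ENSMUSG00000023224, chromosome 2, 84765387 to 84775444, minus strand) was at 0.0166 FPKM in control 1, which is 1 read, and at 0 in the other 5 libraries. A count of 0 over the NNMT libraries allows up to 0.0152 FPKM (3 reads over the group, counting error only). The proteases it inhibits, C1ra, C1s1 and Masp1, were at 2.69 to 8.46 FPKM on average in control and 13.8 to 26.5 FPKM in NNMT libraries.

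Cd55 (ENSMUSG00000026399, chromosome 1, 130439027 to 130462744, minus strand), the membrane-anchored decay-accelerating factor, was the one of the 9 genes that was lower in all NNMT libraries. It was at 8.08, 7.32 and 8.13 FPKM in the control libraries and at 4.99, 5.50 and 6.53 FPKM in the NNMT libraries. The gap between the groups, from NNMT 3 to control 2, was smaller than the range of the NNMT libraries. The means were 7.85 ± 0.455 and 5.67 ± 0.782 FPKM, 1.38-fold lower in NNMT cells (log2 fold change -0.41, SE 0.0828). Of the other membrane regulators 2 rose. Cr1l (Crry), which limits C3 cleavage on rodent cells, rose from 20.02 ± 0.432 to 25.05 ± 1.94 FPKM (log2 fold change 0.31, SE 0.0589, limma adjusted p = 0.00102). Cd59a, which blocks the terminal complex, rose from 2.40 ± 0.218 to 3.102 ± 0.346 FPKM (log2 fold change 0.27, SE 0.0811, limma adjusted p = 0.0137), a call lost without control 2 (adjusted p = 0.0510) or without NNMT 3 (adjusted p = 0.0610). Cd46 was at 0.415 ± 0.0977 and 0.347 ± 0.117 FPKM with overlapping groups.

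Clu (ENSMUSG00000022037, chromosome 14, 65968483 to 65981547, plus strand), a secreted chaperone that also restrains the terminal complex, was at 3.26, 2.33 and 3.14 FPKM in the control libraries and at 11.9, 10.6 and 12.5 FPKM in the NNMT libraries. The groups were well separated. The means were 2.91 ± 0.508 and 11.7 ± 0.989 FPKM, 4.01-fold apart (log2 fold change 1.70, SE 0.0963).

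Ptx3 (ENSMUSG00000027832, chromosome 3, 66219910 to 66225805, plus strand) was the most abundant of the 9 genes in both groups, with the smallest SD relative to its mean. It was at 25.7, 23.8 and 23.8 FPKM in the control libraries and at 181.7, 191.4 and 178.9 FPKM in the NNMT libraries. The spread within a group was small beside the distance between the groups, and NNMT 2 was the highest here. The means were 24.4 ± 1.09 and 184.0 ± 6.60 FPKM, 7.54-fold apart on 4846 and 38976 reads (log2 fold change 2.86, SE 0.0498). Its mean exceeded that of 72.9% of tested genes in control and 97.2% in NNMT cells. On log2(FPKM + 1), which shrinks differences between low values, 15 of 10882 tested genes had a larger log2 fold change. The gene lies within Veph1 on the opposite strand, which was at 0.0269 ± 0.0123 and 0.0535 ± 0.0194 FPKM.

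**Figure D2:**
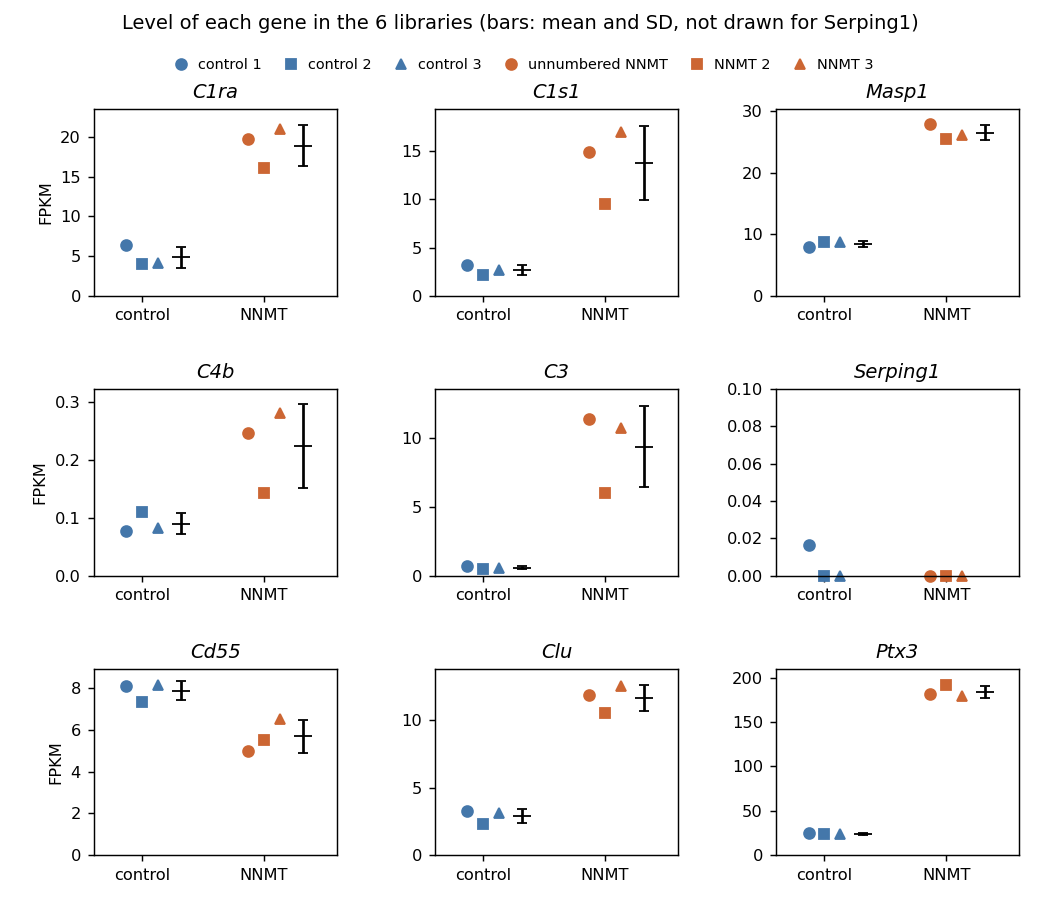
FPKM of each of the 9 genes in the 6 libraries, with blue for control, orange for NNMT and 1 marker shape per library; black bars are the mean and SD of 3 libraries (not drawn for Serping1, which has 1 read in all), and each panel has its own axis from 0. The groups are apart for C1ra, C1s1, Masp1, C4b, C3, Clu and Ptx3, with NNMT higher, and for Cd55, with NNMT lower; NNMT 2 is the lowest NNMT library for C1ra, C1s1, Masp1, C4b, C3 and Clu.

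In order of mean FPKM, control cells had Ptx3, Masp1, Cd55, C1ra, Clu, C1s1, C3, C4b and Serping1. The ranges of Masp1 and Cd55 overlapped there, as did those of Clu and C1s1. In NNMT cells the order was Ptx3, Masp1, C1ra, C1s1, Clu, C3, Cd55, C4b and Serping1, and each neighbouring pair from C1ra down to Cd55 overlapped in range. Cd55 thus went from the third place to the seventh, below C3. Without overlap between the groups, 7 of the 9 genes were higher and 1 lower in NNMT cells. Of all tested genes 37.2% were higher and 32.7% lower without overlap, 69.9% in either direction. The genes were chosen on this contrast, and nothing is read from this count.

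The genes differed in how evenly the libraries of a group carried them. In NNMT 2, C3 was at 64.0% of its group mean, C1s1 at 68.9% and C1s2 at 61.3%, while 0.652% of tested genes were under 75% of the group mean in that library. C4b was at 63.6% there, on 27 reads against 53 in the unnumbered NNMT library and 55 in NNMT 3. It was not tested and has too few reads to be set beside that share. C1ra (84.8%) and C1rl (82.5%) were also lowest in NNMT 2. In the control group, control 1 was the highest library for C1ra (131.8% of the group mean), C1rl (134.0%), C1s2 (131.2%), C1s1 (119.6%) and C3 (121.7%). It was also the highest for Clu (112.1%) and Ptx3 (105.2%), but not for C4b, Cd55 or Masp1. Among all tested genes, 38.7% were highest of the control group in control 1, and 34.6% were lowest of the NNMT group in NNMT 2. Ptx3 and Masp1 varied little in either group, and in NNMT 2 they were at 104.1% and 96.1% of the group mean. Pdgfra, a fibroblast receptor named here after its values were seen, was also highest in control 1 and lowest in NNMT 2 of their groups, with a log2 fold change between the groups of 0.01 (limma adjusted p = 0.973). It was at 44.0, 32.5 and 34.0 FPKM in the control libraries and at 43.0, 27.3 and 42.2 FPKM in the NNMT libraries. Fabp4, a fatty acid carrier of the adipocyte list, had the same highest control and lowest NNMT library, at 0.692, 0.202 and 0.0991 FPKM in control and 1.02, 0.622 and 1.08 FPKM in NNMT libraries. These rest on 15, 5 and 2 reads in control and 26, 14 and 25 in NNMT libraries, so the order is uncertain. The part of any such difference between cultures in the results was not tested. Without NNMT 2 the log2 fold change of C3 was 2.94 and that of C1s1 2.21.

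**Figure D3:**
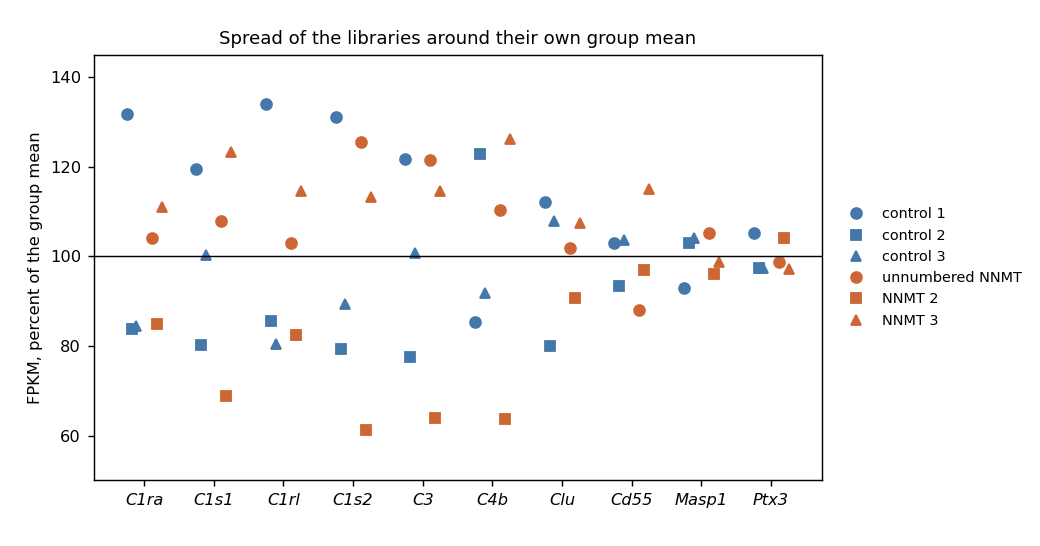
FPKM of each library as a percent of its own group mean (vertical axis), for 8 of the 9 genes and the C1r and C1s relatives C1rl and C1s2, with colours and shapes for the 6 libraries. NNMT 2 (orange squares) lies between 61.3% and 68.9% for C1s1, C1s2, C3 and C4b, and the libraries lie between 92.9% and 105.2% for Masp1 and Ptx3.

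The sequence before the start of each gene is shown for C3, Ptx3 and C1s1, which had the 3 largest ratios between the groups among the 9 genes, and for Cd55, which was lower. Windows of 250 bases before the start were taken from RefSeq (build GRCm38.p6), which held 5 of the 9 genes and a second start of C1s1 38 bases inside the gene (not printed, for the same reason as C1ra). The window of C1ra is left out because 216 of its bases lie in an exon of C1ra in GENCODE M21. Masp1, C4b, Serping1 and Clu had no entry. Capitals mark matches to the C/EBP motif TTGCNNAA on either strand, and all are written 5′ to 3′ along the gene.
C3 (chr17:57228137-57228386, minus strand): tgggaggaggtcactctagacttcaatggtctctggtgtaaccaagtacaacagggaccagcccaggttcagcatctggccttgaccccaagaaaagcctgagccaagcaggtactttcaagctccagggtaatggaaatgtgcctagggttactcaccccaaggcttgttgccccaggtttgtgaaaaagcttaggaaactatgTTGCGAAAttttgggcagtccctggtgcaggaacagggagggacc
Ptx3 (chr3:66219637-66219886, plus strand): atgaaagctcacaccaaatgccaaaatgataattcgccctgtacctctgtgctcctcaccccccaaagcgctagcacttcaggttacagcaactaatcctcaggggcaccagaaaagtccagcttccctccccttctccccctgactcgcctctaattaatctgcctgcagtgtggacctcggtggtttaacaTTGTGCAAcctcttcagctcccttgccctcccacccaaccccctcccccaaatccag
C1s1 (chr6:124542360-124542609, minus strand): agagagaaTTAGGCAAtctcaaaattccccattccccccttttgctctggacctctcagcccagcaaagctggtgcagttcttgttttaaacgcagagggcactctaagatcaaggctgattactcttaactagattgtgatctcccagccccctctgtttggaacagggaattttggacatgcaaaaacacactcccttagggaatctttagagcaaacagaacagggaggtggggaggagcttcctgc
Cd55 (chr1:130462745-130462994, minus strand): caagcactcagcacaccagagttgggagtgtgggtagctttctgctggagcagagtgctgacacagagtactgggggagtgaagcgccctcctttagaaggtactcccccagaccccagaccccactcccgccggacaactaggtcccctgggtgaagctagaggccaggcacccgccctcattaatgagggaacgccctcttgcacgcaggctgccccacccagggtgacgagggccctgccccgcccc
The windows of C3, Ptx3 and C1s1 each held 1 match, from 45 to 38 bases before the start in C3, 57 to 50 in Ptx3 and 242 to 235 in C1s1. The windows of Cd55, C1ra and the second C1s1 start held none, and 9.56% of the 32851 RefSeq windows of this length hold at least 1. None of the 5 genes had a match to the NF-kB consensus, AP-1 (TGANTCA), GAS (TTCNNNGAA), the ISRE consensus or TATAAA on either strand, which occur in 7.25%, 6.75%, 7.02%, 2.98% and 12.4% of windows, and none of the C/EBP matches overlaps another motif searched. These matches describe letters only.

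Most of the other complement genes were not expressed at a testable level. Besides the 8 complement genes among the 9, the lists hold 48 genes of the initiators, the alternative pathway, the terminal components, the regulators and the receptors. Of these, 10 were at 0 in all libraries, 32 had a mean under 0.1 FPKM and 8 reached the filter for the test. Of the 8, C1rl, C1s2 and Cfp passed it through one group alone and are described above by their values. The other 5 all rose at a limma adjusted p under 0.05, where 35.0% of all tested genes were called higher. They were Colec12, Cr1l and Cd59a, described above, and a pair of proteins that bind C1q and have other main roles. C1qbp, mostly a mitochondrial protein, rose from 104.1 ± 2.69 to 129.4 ± 8.48 FPKM (log2 fold change 0.31, limma adjusted p = 0.000610). Calr, an endoplasmic reticulum chaperone, rose from 649 ± 13.3 to 721 ± 34.0 FPKM (log2 fold change 0.15, limma adjusted p = 0.0167), and this call was lost under medians of ratios scaling (adjusted p = 0.0648) and without control 1 (adjusted p = 0.0685). Of the receptors for C3 and C5 fragments none reached the filter. C3ar1, the C3a receptor, was at 0.0417 ± 0.0416 FPKM in control and 0.130 ± 0.0467 FPKM in NNMT cells on 20 and 62 reads, with the highest control library (0.0895 FPKM) just below the lowest NNMT library (0.0986 FPKM). Itgb2, the shared chain of the integrin complement receptors, was at 0.407 ± 0.0760 and 0.855 ± 0.108 FPKM, with its partners Itgam and Itgax at most at 0.0490 FPKM. Cd93 was at 0.932 ± 0.0625 and 0.901 ± 0.0827 FPKM with overlapping groups.

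**Figure D4:**
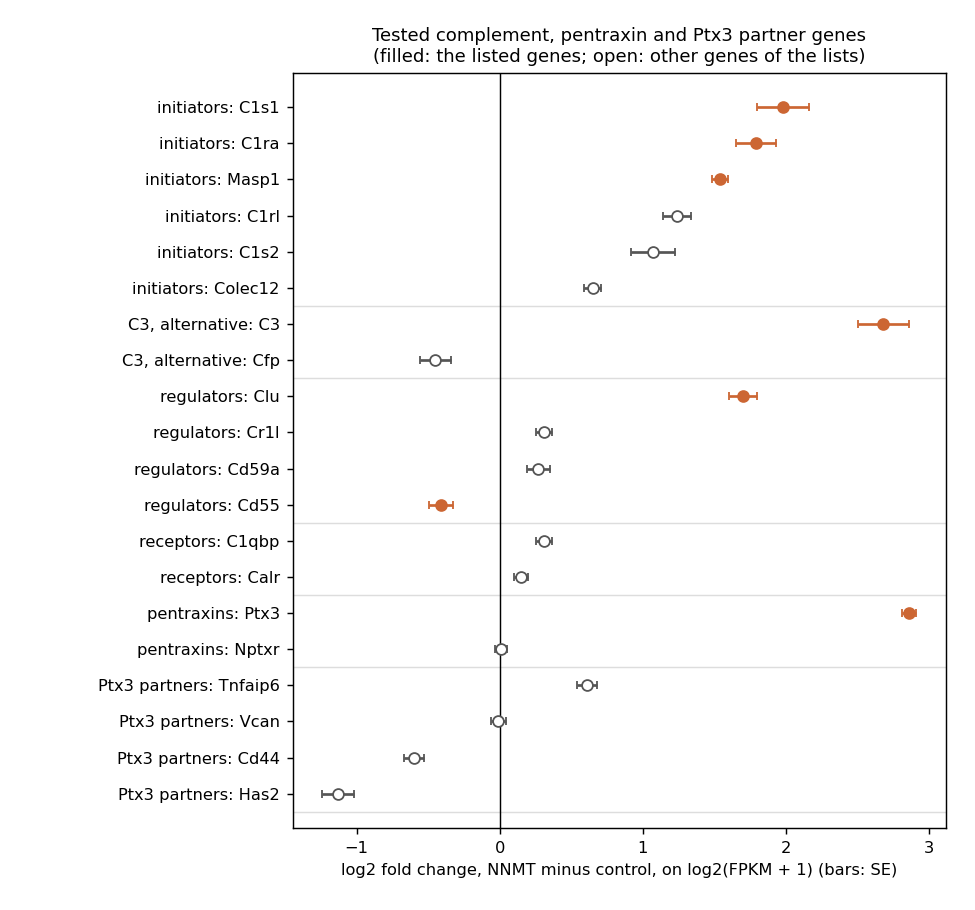
Log2 fold change (NNMT minus control, on log2(FPKM + 1), bars: SE) of the tested genes of the complement, pentraxin and Ptx3 partner lists, by role. Filled points are 7 of the 9 chosen genes and open points the other genes of the lists; C3 (2.68) and Ptx3 (2.86) lie farthest to the right and Has2 (-1.13) farthest to the left.

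The other pentraxins were not called. Nptxr, a membrane pentraxin of neurons, was the only other one of 7 that reached the filter, at 21.1 ± 0.540 and 21.3 ± 0.159 FPKM (log2 fold change 0.01, SE 0.0445, limma adjusted p = 0.851; the sign turned under other scalings). Crp, Apcs, Nptx2 and Ptx4 were at 0 throughout. Ptx3 is known to join a hyaluronan matrix together with Tnfaip6 (TSG-6) and the heavy chains of inter-alpha-inhibitor, and of 11 genes of that matrix 4 were tested, of which 1 rose and 2 fell, a number too small to set beside the 35.0% and 30.6% of all tested genes. Tnfaip6 rose from 7.33 ± 0.653 to 11.7 ± 0.682 FPKM (log2 fold change 0.61, SE 0.0689, limma adjusted p = 2.63e-05). The hyaluronan synthase Has2 fell from 7.95 ± 1.55 to 3.05 ± 0.110 FPKM (log2 fold change -1.13, SE 0.110, limma adjusted p = 9.68e-06). The hyaluronan receptor Cd44 fell from 38.7 ± 1.97 to 25.2 ± 2.58 FPKM (log2 fold change -0.60, SE 0.0704, limma adjusted p = 3.66e-05). The matrix proteoglycan Vcan was at 56.6 ± 1.36 and 56.2 ± 3.33 FPKM. Below the filter, the synthase Has1 was at 0.957 ± 0.0560 and 0.109 ± 0.0503 FPKM, and the inter-alpha-inhibitor heavy chain Itih2 was at 0.131 ± 0.0285 and 0.845 ± 0.0362 FPKM. Another heavy chain gene, Itih4, was at 0.116 ± 0.0244 and 0.263 ± 0.0509 FPKM without overlap, and the synthase Has3 was at 0.259 ± 0.0518 and 0.302 ± 0.0214 FPKM with overlap.

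Of 27 listed genes of the acute phase and of the factors that induce it, 15 were tested, of which 9 rose, 1 fell and 5 were not called (median log2 fold change 0.23, against 0.03 for all tested genes, of which 35.0% were called higher and 30.6% lower). The plasma copper protein ceruloplasmin (Cp) rose from 4.68 ± 0.542 to 13.7 ± 0.373 FPKM (log2 fold change 1.38, limma adjusted p = 1.19e-07). Nfkbiz, a nuclear regulator of NF-kB target genes, rose from 1.28 ± 0.205 to 4.02 ± 0.114 FPKM (log2 fold change 1.14, limma adjusted p = 7.88e-07). The cytokine receptor chains Il6st (log2 fold change 0.93), Osmr (0.71) and Il1r1 (0.68) rose as well, with limma adjusted p = 4.37e-06, 7.58e-05 and 5.79e-06. The transcription factors Rela, Nfkb1 and Stat3 rose by less (log2 fold changes 0.23, 0.21 and 0.34). Cebpb, a C/EBP factor, was the ninth to rise (log2 fold change 0.28, limma adjusted p = 0.00453), and the feedback inhibitor Socs3 fell (log2 fold change -0.28, limma adjusted p = 0.00329). Among those not called, Nfkbia, Cebpd, Irf1 and Il6ra had log2 fold changes of 0.02, -0.09, 0.14 and -0.13. Saa3, a serum amyloid gene named here after its values were seen, was at 0.0553, 0.0484 and 0.238 FPKM in the control libraries and at 0.894, 1.39 and 0.881 FPKM in the NNMT libraries, on 6 and 62 reads. Serpina3n, a protease inhibitor, was at 0.615 ± 0.0660 and 0.362 ± 0.0557 FPKM, lower in all NNMT libraries on 132 and 84 reads, and Il6 was at 0.559 ± 0.222 and 0.835 ± 0.182 FPKM with overlap, both also named after their values were seen. None of these reached the filter, and Lcn2, Hp, Saa1, Saa2 and Orm1 were at most at 0.190 FPKM in any library.

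The profiles most like those of C3 and Ptx3 belonged to genes of other families. Likeness was measured over the 6 libraries as the root mean square difference of log2(FPKM + 1) after centring each gene. Shape and the size of the difference on that scale both count, but ratios of FPKM need not match. For C3 the nearest tested protein-coding genes were Dpt, a matrix protein (difference 0.130), and the collagen chain gene Col5a3 (0.147). Dpt was at 0.126, 0.0942 and 0.193 FPKM in the control libraries and at 8.0, 5.28 and 8.01 FPKM in the NNMT libraries. Like C3 it was lowest in NNMT 2, which follows from its choice by likeness to C3 over these libraries. For Ptx3 they were Srpx2 (0.0679) and Stmn3 (0.0740), at 0.108 ± 0.0458 and 0.114 ± 0.0744 FPKM in control and 7.12 ± 0.323 and 7.30 ± 0.724 FPKM in NNMT cells, far below the level of Ptx3 itself. Dpt, Srpx2 and Stmn3 passed the filter for the test through the NNMT group alone. Dpt had a larger ratio between the groups than C3, and Srpx2 and Stmn3 larger ones than Ptx3. The added 1 shrinks such differences at low values.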

How the data were processed

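RNA was sequenced from 3 control and 3 NNMT libraries of 3T3 cells. CASAVA, STAR 2.5 and the build mm10 are listed per the submitters' processing notes. The sources used here do not give the counter, annotation, strand or multi-mapping rules. In the table deposited by the authors the values have no unit and are read here as FPKM: within a gene the values are whole multiples of a step, and 71.1% of the 20528 genes above 0 gave whole reads (within 0.01 of a read in every library) at the length of the longest GENCODE M21 transcript. Whole reads were recovered for the remaining genes from the step itself. On a gene of 1 kb, 1 read equals 0.0250 to 0.0316 FPKM. Names and positions of genes come from GENCODE M21, GRCm38 (34490 of 35275 rows paired).

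The test was limma 3.58.1 (R 4.3.3) on log2(FPKM + 1), for the 10882 genes whose 6 libraries average 1 FPKM or more (trend, robust, two-sided, Benjamini-Hochberg over all genes tested, threshold 0.05). The fit was run on simulated reads with a fixed spread between libraries and few changed genes. In these data most tested genes were called, so that run does not measure the error of the p-values given here. Ratios are of mean FPKM and need at least 10 reads per group. The 9 genes, the gene lists and the tests were chosen with earlier results of these data known. Named besides the 9 were Nnmt, those complement, pentraxin and Ptx3 partner genes with a mean of 1 FPKM (or at least 0.1 FPKM in a group), the 8 acute phase genes with the smallest adjusted p, and the 2 nearest profiles of C3 and of Ptx3. Genes other than the 9 that passed the filter only through one group are given without a p. Further genes are marked in the text as chosen after seeing values, or are given because a short count or a marker list holds them. Whether the libraries of a group come from separate transductions is not stated, so p-values reflect the spread between these samples alone, which may be technical.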

Additional observations from a re-analysis of the deposited data

How the results depend on the processing

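Under quantile normalization, medians of ratios scaling, pseudocounts of 0.1 and 10, no filter, a filter of 5 FPKM, limma without trend and robust moderation, limma-voom on recovered reads, a threshold of 0.01, leaving out each library, and the replicate block, the 7 tested genes of the 9 kept their direction wherever they could be fitted, and C3 fell below the filter of 5 FPKM. The log2 fold change of C3 ran from 0.86 (pseudocount 10) to 4.01 (limma-voom) and that of Ptx3 from 2.495 to 2.91. Among complement genes outside the 9, the counts were 7 higher and 1 lower, with the 3 that passed the filter through one group included. The calls of those 3 follow in part from the filter, so nothing is read from these counts, here or below. The counts were 11 higher and 3 lower with no filter and 4 and 0 with the filter of 5 FPKM, which tests fewer genes. Leaving out one library gave 6 to 7 higher and 0 to 1 lower; without control 2 the lower one, Cfp, fell below the filter. For all genes the counts were 4396 higher and 3515 lower with no filter and 2883 and 2609 with the filter of 5 FPKM. Leave-one-out counts for all genes were 3366 to 3828 higher and 2960 to 3368 lower. Leave-one-out values for the 9 were 2.53 to 2.94 (C3), 1.82 to 2.21 (C1s1), 1.70 to 1.97 (C1ra), 1.495 to 1.57 (Masp1), -0.50 to -0.34 (Cd55), 2.84 to 2.90 (Ptx3) and 1.59 to 1.77 (Clu). In 4 genes near no change the sign turned, and the cause was not tested: Nptxr (-0.016 under quantile normalization, -0.034 under medians of ratios, -0.005 to 0.030 without a library), Nfkbia (-0.007, -0.023, and -0.044 to 0.070), Vcan (0.036 with and without the block, -0.058 to 0.021 without a library) and Cebpd (-0.200 to 0.028 without a library). Il6ra and Irf1, not called here, were each called under some settings (Il6ra under both other scalings, Irf1 without the unnumbered NNMT library). Only replicates 2 and 3 carry numbers in both groups, and deviations of same-numbered libraries correlated at 0.212 and 0.110. Control 1 and the unnumbered NNMT library correlated at 0.314, but that column carries no number, and control 3 correlated with NNMT 2 at 0.212, so a pairing was not settled. The replicate block over these 4 libraries gave 3903 genes higher and 3207 lower, and 3664 and 2965 without the block (a setting chosen after seeing the data). Among complement genes outside the 9 the replicate block gave 7 and 1, and the counts of tested genes of the 9 without overlap were 6 higher and 1 lower, as with all libraries (C4b was not tested). Depth limits what can be said of C4b and Serping1.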
